A study of Mus musculus with 2 samples.

Results

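Natural killer (NK) cells low in Gzmc, the gene of granzyme C, were taken from mouse tumours profiled by single-cell RNA sequencing. Each cell, read as a cell barcode, had to hold at least 2 UMIs (unique molecular identifiers, 1 per captured RNA molecule) of Ncr1 and Klrb1c together. It also had to hold no UMI of Cd3d, Cd3e or Cd3g, fewer than 3 UMIs of Gzmc, and at most 20 UMIs per 10000 of 8 myeloid genes, which were Cd74, Apoe, the MHC class II genes H2-Ab1, H2-Aa and H2-Eb1, and C1qa, C1qc and C1qb of complement. Of 22699 kept barcodes, 410 met these limits. They numbered 281 of 13762 barcodes in the IL4 library and 129 of 8937 barcodes in the control library.

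The study measured CD45-positive immune cells, sorted by flow cytometry from subcutaneous tumours of the melanoma line B16F10 in wild-type (WT) mice. In the IL4 group the mice had received bone-marrow-derived macrophages (BMDMs) that had been treated with IL4. In the control group they had received BMDMs without that treatment, so tumour and macrophage transfer were common to both groups. Samples were grouped by their characteristics field, since the protocol field names IL-4-treated cells for both libraries. Each group had 1 library and how many mice it was made from is not stated in the sources used here. No difference below therefore has a replicate check. All intervals are 95% intervals and cover counting error only.

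NK cells are innate lymphocytes that kill stressed or transformed cells without rearranged antigen receptors. Activating receptors such as NKp46 (encoded by Ncr1) and NKG2D (Klrk1) are weighed against inhibitory receptors for MHC class I, which in mice are largely of the Ly49 family (the Klra genes). Target cells are killed by perforin and granzymes or through Fas ligand, and NK cells recruit and instruct other leukocytes with interferon gamma and the chemokines Ccl3, Ccl4, Ccl5 and Xcl1.

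Sequences upstream of 3 genes that set the gated NK cells apart from the other barcodes are shown first: Ncr1 (a gate gene), the chemokine gene Xcl1 and the granzyme gene Gzma. They are RefSeq promoters of mouse build GRCm38.p6, from 250 bases before the start of the gene to 50 bases after it, on the coding strand, at chr7:4337465-4337764 (plus strand) for Ncr1, chr1:164935473-164935772 (minus strand) for Xcl1 and chr13:113100932-113101231 (minus strand) for Gzma. Capitals mark matches on either strand to the RUNX core TGTGGTT or to the T-box letters TCACACC, each searched on both strands.
Ncr1: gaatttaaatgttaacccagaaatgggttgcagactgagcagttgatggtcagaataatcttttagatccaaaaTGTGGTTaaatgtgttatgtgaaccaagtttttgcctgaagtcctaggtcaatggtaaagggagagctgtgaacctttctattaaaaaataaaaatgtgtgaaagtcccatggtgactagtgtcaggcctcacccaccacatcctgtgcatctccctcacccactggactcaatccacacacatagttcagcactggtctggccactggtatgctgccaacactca
Xcl1: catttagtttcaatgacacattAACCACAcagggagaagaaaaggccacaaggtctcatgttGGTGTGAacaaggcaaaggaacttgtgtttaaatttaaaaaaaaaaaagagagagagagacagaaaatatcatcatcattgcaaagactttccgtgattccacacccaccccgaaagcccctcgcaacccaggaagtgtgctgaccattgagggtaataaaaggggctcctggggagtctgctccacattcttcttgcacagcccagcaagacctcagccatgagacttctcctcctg
Gzma: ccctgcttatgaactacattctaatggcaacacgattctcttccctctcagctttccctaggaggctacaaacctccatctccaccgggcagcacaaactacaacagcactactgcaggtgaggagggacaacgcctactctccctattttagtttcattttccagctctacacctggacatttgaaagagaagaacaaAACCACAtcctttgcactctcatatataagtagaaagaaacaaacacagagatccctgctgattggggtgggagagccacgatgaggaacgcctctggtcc
Of the 25 genes that led the gated NK cells over the other barcodes, 20 had a promoter in the table. The RUNX letters were in 5 of these 20 (Gzma, Klra1, Klre1, Ncr1 and Xcl1), and in 6.09% of 27025 genes. The T-box letters were in 3 of the 20 (Klra1, Samd3 and Xcl1), and in 4.60% of all genes. A match describes letters and shows no binding.

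The gated NK cells made up 2.04% of kept IL4 barcodes (exact binomial interval 1.81 to 2.29%) and 1.44% of kept control barcodes (1.21 to 1.71%). The difference was 0.598 percentage points (Newcombe interval 0.249 to 0.936), with the larger share in the IL4 library. Both libraries held cells with Xist UMIs and cells with Y-linked UMIs, in different proportions, so shares were also taken within cells of 1 kind. Among cells with only Xist UMIs the NK share was 2.12% in IL4 (213 of 10058) and 1.61% in control (69 of 4296), a difference of 0.512 points (0.0145 to 0.961). Among cells with only Y-linked UMIs the share was 2.04% in IL4 (25 of 1227) and 1.48% in control (37 of 2497), and the interval of that difference, -0.301 to 1.59 points, included 0. A share of sorted cells also depends on the sort and on which cells survived dissociation, which was not tested.

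**Figure D1:**
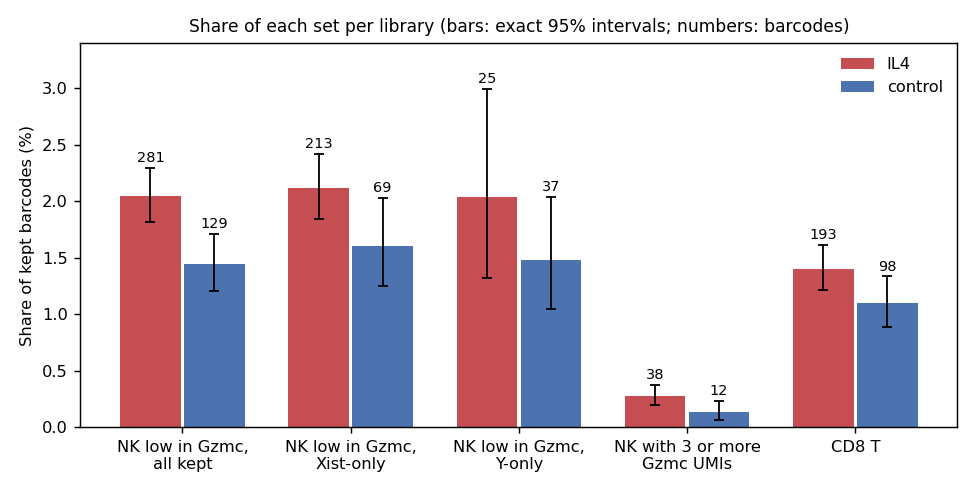
Share of kept barcodes (y axis, percent) for the gated NK cells in all barcodes and within Xist-only and Y-only barcodes, and for NK cells with 3 or more Gzmc UMIs and CD8 T cells; bars are the IL4 and control libraries, whiskers exact 95% intervals, and numbers are barcodes. The IL4 bar is the higher one in each pair; the whiskers of all gated NK cells do not overlap (1.81 to 2.29% and 1.21 to 1.71%), and those of the other pairs do.

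Cells close to the limits were few for Gzmc and more for the NK genes. Exactly 2 UMIs of Ncr1 and Klrb1c were held by 69 IL4 and 22 control cells of the set, and 85 IL4 and 18 control barcodes lay outside by 1 UMI. Gzmc was at 0 UMIs in 251 IL4 and 120 control cells, at 1 UMI in 20 and 9, and at 2 UMIs in 10 and 0. Just outside, 6 IL4 and 3 control barcodes had 3 Gzmc UMIs. For the myeloid genes, 26 IL4 and 7 control cells lay within 15 to 20 per 10000, and 10 IL4 and 6 control barcodes within 20 to 25 per 10000 were left out. NK cells over the Gzmc limit numbered 38 in IL4 and 12 in control, so the low cells were 88.1% of both NK sets together in IL4 and 91.5% in control. Gzmc limits on raw UMIs also select on depth: the median UMI count was 6212 (IL4) and 6384 (control) in the low cells, against 13600 (IL4) and 11770 (control) in the cells over the limit.

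The label of NK cells was borne out by genes the gates did not use. Klra8, the Ly49H activating receptor gene and the one marker outside the gates, had 306 CPM (its UMIs per 1000000 UMIs of those cells) in the gated cells of the IL4 library and 331 CPM in those of the control library, against 9.95 and 4.10 CPM in all other barcodes of the same libraries. Eomes, a T-box factor that NK cells need to mature, had 303 CPM in IL4 and 351 CPM in control, against 18.0 and 10.2 CPM in the other barcodes. Txk, a Tec-family kinase gene, had 480 (IL4) and 518 CPM (control), and Il2rb, a receptor chain for IL-2 and IL-15, had 895 and 894 CPM. At least 1 Klra8 UMI was seen in 46.3% of gated IL4 cells and 38.8% of gated control cells. After thinning each cell to 1000 UMIs it was seen in 19.6% of gated IL4 cells and 18.6% of gated control cells, against 0.172% and 0% of myeloid barcodes. The myeloid barcodes were the deeper ones, with medians of 10660 and 12170 UMIs. They were chosen to hold no UMI of Ncr1, Klrb1c or the CD3 genes, so low shares of NK genes in them are partly set by selection. The same holds for every share of myeloid barcodes given below. All these levels describe a set chosen from the same counts, and 29.9% of genes in IL4 and 31.3% in control were at least 1.5-fold higher in the set than in the other barcodes.

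Markers of other lineages were only partly at or near 0. The 12 T cell genes, with the CD3 genes that the gate held at 0, summed to 722 CPM in IL4 and 769 CPM in control. In the other barcodes they summed to 395 and 333 CPM. The 13 dendritic genes, some limited by the myeloid gate, summed to 830 and 774 CPM, against 16070 and 16970 CPM in the other barcodes. Cd4 had no UMI in either library, and Cd8a had 2 UMIs in each. Trac, the constant gene of the T cell receptor alpha chain, had 19.5 CPM in IL4 and 24.2 CPM in control and was seen in 36 and 21 of the gated cells. Trbc1 and Trdc reached 393 and 46.4 CPM in IL4 and 375 and 64.1 CPM in control. Germline transcripts of both loci are known from mouse NK cells, but whether the transcripts here were germline or rearranged was not tested. No UMI of the B cell genes Cd79a, Cd79b and Ms4a1 or of the innate lymphoid genes Il13, Il5 and Il1rl1 was found, while Ighm had 75.9 CPM in IL4 and 91.4 CPM in control. The 12 innate lymphoid genes summed to 233 CPM in IL4 and 260 CPM in control, against 204 and 125 CPM in the other barcodes. Of these 12, 8 had no UMI in IL4 and 9 in control. Rora, of that list, had 119 CPM in IL4 and 121 CPM in control even without the small ranges described below. The neutrophil gene S100a9 had 9 UMIs in IL4 and 71 in control, 59 of which were in 1 barcode. The 15 macrophage and monocyte genes summed to 1274 CPM in IL4 and 1185 CPM in control, against 7383 and 8276 CPM in the other barcodes. None of the 15 was at 0, and Lyz2 alone gave 602 CPM in IL4 and 521 CPM in control. Their part in the results below was not tested, beyond the values given without the cells that carry them.

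The 25 genes leading the gated NK cells over the other barcodes, ranked by the lower of the libraries' ratios, included 10 genes of the Klr families, lectin-like receptors of the NK gene complex on chromosome 6. The 25 were Klrb1c, Gzma, Klra4, Klra8, Klra9, Ncr1, Xcl1, Klra7, Rab27b, Spry2, Fam184a, Klrb1a, Adamts14, Klrb1f, Samd3, Klra1, Klre1, Clnk, Styk1, Itga2, Scml4, Eya1, Klri2, Vegfc and Tshz3. Klrb1c (chr6:128778485-128789215 on GRCm38), which encodes NK1.1, was a gate gene and had 437 CPM in IL4 and 472.5 CPM in control, against 10.0 and 5.93 CPM in the other barcodes. Gzma (chr13:113093825-113100981) had 2617 CPM in IL4 and 2153 CPM in control, against 84.5 and 33.3 CPM elsewhere. Vegfc, a lymphatic growth factor gene, had 41.4 CPM in IL4 and 42.0 CPM in control, against 1.48 and 0.879 CPM in the other barcodes, and no UMI in CD8 T cells. NK cells over the Gzmc limit had 37.9 and 19.5 CPM of it. Those cells had 259 and 283 CPM of Ncr1 (229 and 258 CPM in the gated cells) and 124 and 176 CPM of Styk1 (111 and 153 CPM). Klrb1c was lower there, at 222.5 and 185.5 CPM. The 25 genes thus set apart NK cells, not only those low in Gzmc. Clnk, an adaptor of immune receptor signalling, had 177 CPM in IL4 and 228 CPM in control. Rab27b, a GTPase of granule release, had 77.4 and 58.8 CPM.

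Ly49 genes were spread over the cells in combinations. Of 6 Ly49 genes counted, 28.8% of IL4 cells and 30.2% of control cells held UMIs of exactly 2, and 20.6% and 28.7% held UMIs of 3. None was seen in 15.7% of IL4 cells and 9.30% of control cells, a reading that depends on depth, whereas 95.2% and 96.7% of myeloid barcodes held none. Klra4 had 389 CPM in IL4 and 413 CPM in control. For Klra7 the levels were 282.5 and 351.8 CPM, for Klra9 123 and 124 CPM, for Klra1 78.9 and 77.7 CPM and for Klra3 68.9 and 81.9 CPM. These genes are near-identical copies, so the counting could split or drop their reads and single Ly49 levels are uncertain.

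**Figure D2:**
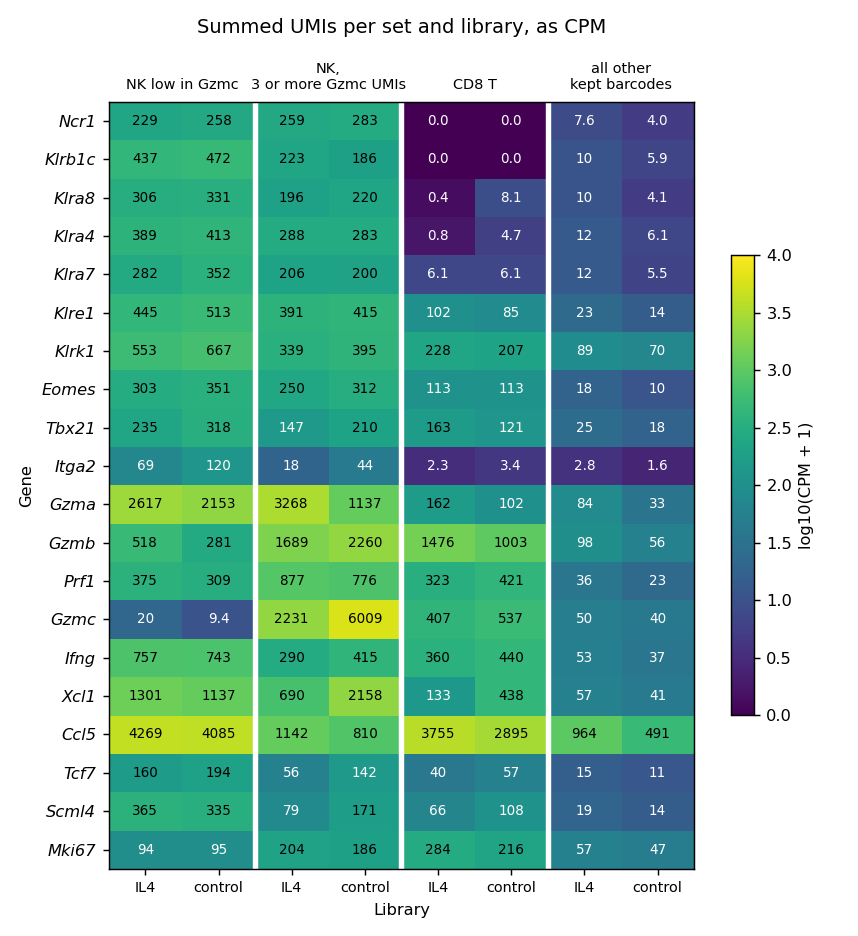
Levels of 20 genes (rows) as CPM, printed in each cell and coloured on a log10(CPM + 1) scale, in the gated NK cells, NK cells with 3 or more Gzmc UMIs, CD8 T cells and all other kept barcodes, with the IL4 library left of control in each set. The Klra genes are high in both NK sets and near 0 in CD8 T cells. For Ncr1 and Klrb1c that contrast was set by selection, since the CD8 T cells had to hold no UMI of either. Gzmb, Prf1 and Mki67 are lower and Ccl5 higher in the gated cells than in NK cells over the Gzmc limit.

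Set beside the NK cells with 3 or more Gzmc UMIs, the gated cells had lower Gzmb, Prf1 and cell-cycle transcripts and higher Ccl5, while the median of the cytotoxic list was near 0 in both libraries (0.0015 in IL4 and 0.0013 in control, log2). Of 3305 genes of sufficient level, 12.6% were at least 1.5-fold higher in the gated cells in both libraries and 6.96% at least 1.5-fold lower. Gzmb, on the same granzyme locus of chromosome 14 as Gzmc (chr14:56258838-56262260 and chr14:56231441-56234656), had 518 CPM (IL4) and 281 CPM (control) in the gated cells, against 1689 and 2260 CPM over the limit. Prf1, the perforin gene, had 375 and 309 CPM against 877 and 776 CPM. Gzmd, another granzyme gene of that locus, had 2 UMIs in the gated IL4 cells and 0 in the gated control cells, against 33 and 153 UMIs over the limit. Gzma showed no common direction, with 3268 CPM (IL4) and 1137 CPM (control) over the limit.

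Ccl5, a chemokine for T cells and monocytes, had 4269 CPM in the gated IL4 cells and 4085 CPM in the gated control cells, against 1142 and 810 CPM over the limit. CD8 T cells had 3755 and 2895 CPM. Ifit3, an interferon-induced gene, had 113 and 97.7 CPM, against 14.8 and 14.6 CPM. The other genes highest by this comparison were Arg1, Abcg1, Angpt1, Plcxd2, Rnf125, Tcp11l2, Pmepa1 and Jmy, of which Abcg1, Arg1 and Angpt1 rested on at most 4 UMIs per library in the cells over the limit. Lowest after Gzmc and Gzmd were Myo10, Sema6d, Spp1, Ccdc184, Pclaf, AA467197, Ube2c and Gzmb. The 19 tested genes of the cell cycle had a median log2 ratio of -1.45 in IL4 and -1.13 in control, and the transcripts Mki67 (93.8 and 94.5 CPM against 204 and 186 CPM) and Pclaf (58.4 and 28.4 CPM against 211 and 107 CPM) were among the lower ones. Tcf7, a factor of less mature and memory-like lymphocytes, had 160 and 194 CPM in the gated cells against 56.0 and 142 CPM.

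Within the set, 3 small ranges were cut at limits set after the data were seen. Cells over 20 UMIs per 10000 of 9 monocyte and macrophage genes outside the gates numbered 10 in IL4 (3.56%) and 6 in control (4.65%), with median UMI counts of 14850 and 12860. They were led by Ccl6, Alox5ap, Arg1, Thbs1, F13a1 and Pf4. Arg1, the arginase of suppressive myeloid cells, had 553 CPM there in IL4 and 768 CPM in control, and 21.0 CPM in the remaining gated IL4 cells, so the Arg1 level of the whole set came mostly from these cells. Whether they are doublets or carry free RNA was not tested.

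Cycling cells, over 30 UMIs per 10000 of the cell-cycle list, numbered 14 in IL4 (4.98%) and 5 in control (3.88%). Mki67 had 809.5 CPM in them in IL4 and 1049 CPM in control. A range with 4 or more UMIs of 7 genes around Il7r held 18 IL4 cells (6.41%) and 12 control cells (9.30%), led by Il1rn, Ptgs2, Clec4e, Ier3, St6galnac3 and Lgals3. Ptgs2 was also among the leading genes of the monocyte-transcript cells, and Inpp4b, Rora and Camk4 ranked 9, 11 and 12. These leading genes do not point to 1 cell type and the range is left without a name. The remaining 239 IL4 cells and 106 control cells were 85.1% and 82.2% of the set. Near the limits lay 7 IL4 and 0 control cells for cycling (25 to 35 per 10000), 2 and 1 for the monocyte genes (15 to 25 per 10000), and 17 IL4 and 8 control cells held 3 UMIs of the Il7r-type genes.

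Cd27 and Itgam (CD11b), whose proteins order mouse NK maturation from CD27 alone through both to CD11b alone, gave 4 bins. Cd27 UMIs alone were in 59 IL4 and 28 control cells, both genes in 40 and 31, Itgam alone in 66 and 26, and neither in 116 and 44, the last being also the shallowest bin in IL4 (median 5373 UMIs). Zeb2, a factor of terminal NK maturation, had 354 CPM (IL4) and 410 CPM (control) with Cd27 alone, 959 and 747 CPM with both, and 791 and 824 CPM with Itgam alone. It was thus lower with Cd27 alone than in either bin with Itgam in both libraries. With neither gene it had 388 CPM in IL4 and 506 CPM in control. Ltb, of the less mature stage, had 247.5 and 314 CPM with Cd27 alone against 129 and 225 CPM with Itgam alone. Other genes did not keep an order. Kit had 32.4 and 25.1 CPM with Cd27 alone against 16.4 and 112 CPM with Itgam alone. For Klrg1 the levels were 18.5 and 54.4 CPM against 26.6 and 10.7 CPM, and for Tcf7 153 and 214 CPM against 133 and 203 CPM. Itgam was also found in the monocyte-transcript cells, at 456 and 318 CPM. Gzmb had 474 CPM (IL4) and 134 CPM (control) with Cd27 alone, 640 and 357 CPM with both, and 566 and 262 CPM with Itgam alone. With neither it had 439 CPM (391 to 491) in IL4 and 353.5 CPM (288 to 430) in control. The IL4 value was higher in all 4 bins, but the intervals overlapped in the bin with neither gene. In the other bins they did not overlap.

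Between the libraries, most NK genes differed by less than 1.5-fold, while Gzmb, Fasl, Vegfa and several replication genes were higher in IL4 past that fold and heat shock genes and Itga2 lower. Of 8852 genes with at least 20 UMIs over both libraries, 692 were at least 1.5-fold higher in IL4 (7.82%) and 725 at least 1.5-fold lower (8.19%), on log2 ratios of CPM + 1. These shares are the background for every list count below. The fold's own counting interval lay above 1 for 258 of the higher genes and below 1 for 360 of the lower ones. The median log2 ratio over all tested genes was -0.02. In all other kept barcodes, 22 of the 692 and 20 of the 725 genes also passed 1.5-fold the same way. The share of all tested genes that passed there was not taken. The overlap therefore does not show whether the differences are particular to the NK cells. Without the monocyte-transcript, cycling and Il7r-type cells, 530 and 567 still passed. The cells left were 85.1% of the set in IL4 and 82.2% in control, so much of that overlap was given in advance. A summed level does not tell more cells with a transcript from more transcript per cell.

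Genes of NK identity and the receptors were close in both libraries. None of 14 identity genes and none of 20 activating receptors and adaptors passed 1.5-fold, with median log2 ratios of -0.11 and -0.10. Over all tested genes 7.82% passed higher and 8.19% lower, so few would pass in lists of this size. The identity list also holds the gate genes Ncr1 and Klrb1c. Ncr1 had 229 CPM in IL4 and 258 CPM in control (fold 0.887, interval 0.758 to 1.04). Klrk1 had 553 and 667 CPM (fold 0.829, 0.752 to 0.916). Of 17 inhibitory receptors tested, Havcr2 and Lag3 were higher past 1.5-fold and Klra6 lower. Havcr2 (TIM-3) had 28 UMIs in IL4 and 4 in control, Lag3 had 44 and 13, and Klra6 had 17 and 13, which are small counts. Klrd1, which pairs with NKG2 receptors, had 439 CPM in IL4 and 572 CPM in control, and its partner Klrc1 (NKG2A) had 137 and 180 CPM. Pdcd1 had 2 UMIs in IL4 and none in control.

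Among 16 tested genes of the cytotoxic granule, Gzmb and Fasl were at least 1.5-fold higher in IL4, Tnfsf10 was lower, and the median log2 ratio was 0.15. Gzmb encodes granzyme B, which triggers apoptosis in target cells. It had 1037 UMIs in IL4 and 268 in control, which is 518 CPM (486.5 to 550.0) in IL4 and 281 CPM (249 to 317) in control. The fold was 1.84 (1.61 to 2.11). At least 1 UMI was seen in 172 of 281 IL4 cells and 64 of 129 control cells. After thinning to 1000 UMIs the shares were 26.7% in IL4 and 20.9% in control, against at most 0.429% of myeloid barcodes in either library. The per-cell median was 1.86 UMIs per 10000 in IL4 and 0 in control, and the highest single cell gave 46 of the IL4 UMIs and 26 of the control UMIs.

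The Gzmb difference depended on which cells were counted. In cells with only Xist UMIs the fold was 2.01 (1.67 to 2.44), from 763 UMIs in IL4 and 131 in control. In cells with only Y-linked UMIs it was 1.14 (0.828 to 1.56), from 75 and 92 UMIs, an interval that includes 1. Among the 109 IL4 and 45 control cells with fewer than 3 cell-cycle UMIs the log2 ratio was 0.23, against 0.88 in all gated cells. A limit on raw UMIs also selects on depth, and whether depth or cycling moved the ratio was not tested. The cycling cells described above held 10.5% of the IL4 Gzmb UMIs and 5.97% of the control ones. In all other kept barcodes Gzmb was higher in IL4 too, with 98.3 CPM against 55.8 CPM in control (log2 ratio 0.80). Those barcodes hold NK cells that fell outside the gates. The 14 NK identity genes had a median log2 ratio of 0.67 there, with 9 past 1.5-fold higher. What part of the Gzmb ratio comes with them was not tested. In NK cells over the Gzmc limit Gzmb was lower in IL4 than in control.

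Fasl, the gene of Fas ligand, had 137 CPM in IL4 and 81.9 CPM in control, a fold of 1.68 (1.30 to 2.18), with a UMI in 138 and 53 cells. After thinning it was seen in 15.3% of IL4 cells and 6.20% of control cells, against 0.0859% and 0% of myeloid barcodes. Its fold was 1.47 (1.06 to 2.09) in Xist-only cells and 2.46 (1.40 to 4.43) in Y-only cells. The other killing genes differed less. Prf1 had 375 CPM in IL4 and 309 CPM in control (fold 1.21, 1.06 to 1.39) and Gzma 2617 and 2153 CPM (fold 1.22, 1.16 to 1.28). Nkg7, a granule membrane protein, had 1068 and 1021 CPM, and Serpinb9, which protects the killer from its own granzyme B, had 379 and 301 CPM. Tnfsf10 (TRAIL) had 12.5 CPM in IL4 and 24.2 CPM in control, from 25 and 23 UMIs.

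Of 14 cytokines and chemokines, 4 passed 1.5-fold higher (Areg, Ccl1, Il10 and Flt3l), all at low counts, and Lta passed lower. Ifng had 757 CPM in IL4 and 743 CPM in control (fold 1.02, 0.930 to 1.11). Ccl4 had 6458 and 5026 CPM (fold 1.28, 1.24 to 1.33), in a setting where the other barcodes had 4141 and 2630 CPM. For Ccl5 the levels were 4269 and 4085 CPM, and for Xcl1, which attracts cross-presenting dendritic cells, 1301 and 1137 CPM. Tnf had 215 CPM in IL4 and 279 CPM in control, and the sign of that ratio differed between Xist-only and Y-only cells. Areg had 92 UMIs in IL4 and 7 in control, but 50 of the 92 were in 1 cell and 56 in the monocyte-transcript cells.

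Receptors for cytokines showed 2 of 23 genes higher past 1.5-fold, Cish and Il21r, and none lower, beside 7.82% higher and 8.19% lower over all tested genes. Il12rb2, the IL-12 receptor chain that activation induces, had 664 CPM in IL4 and 471.5 CPM in control, a fold of 1.41 (1.26 to 1.57). Its fold was 1.44 (1.25 to 1.67) in Xist-only cells and 1.67 (1.34 to 2.09) in Y-only cells, the same direction in both. Cish, a brake on IL-15 signalling, had 44.9 CPM in IL4 and 28.4 CPM in control. Il4ra, the receptor chain for IL-4, had 92.8 and 78.8 CPM (log2 ratio 0.23). Of the 15 genes of the IL-2 and IL-15 growth list, Cish, Srm and Slc7a5 passed higher and none lower, with a median of 0.22. Srm makes spermidine and Slc7a5 imports large amino acids. Both rested on few UMIs, 40 in IL4 and 10 in control for Srm, and 74 and 21 for Slc7a5.

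Vegfa, the angiogenic factor induced by hypoxia, was the single gene of 17 tested in the TGF-beta and hypoxia list that passed 1.5-fold higher, while Itga1 and Pdk1 passed lower. It had 469 UMIs in IL4 and 135 in control, which is 234 CPM (213 to 256) in IL4 and 142 CPM (119 to 168) in control. The fold was 1.65 (1.36 to 2.02). The fold was 1.57 (1.23 to 2.03) in Xist-only cells, and in Y-only cells, with 28 UMIs in IL4 and 26 in control, its interval of 0.850 to 2.67 included 1. In all other barcodes the levels were 157 CPM in IL4 and 167 CPM in control. Monocyte-transcript cells held 7.46% of its IL4 UMIs and 19.3% of its control UMIs. Without them Vegfa had 235 CPM in IL4 and 124 CPM in control. Glycolytic and hypoxia genes of the list differed less, with Ldha at 351 CPM in IL4 and 304 CPM in control and Slc2a1 at 71.9 and 58.8 CPM.

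**Figure D3:**
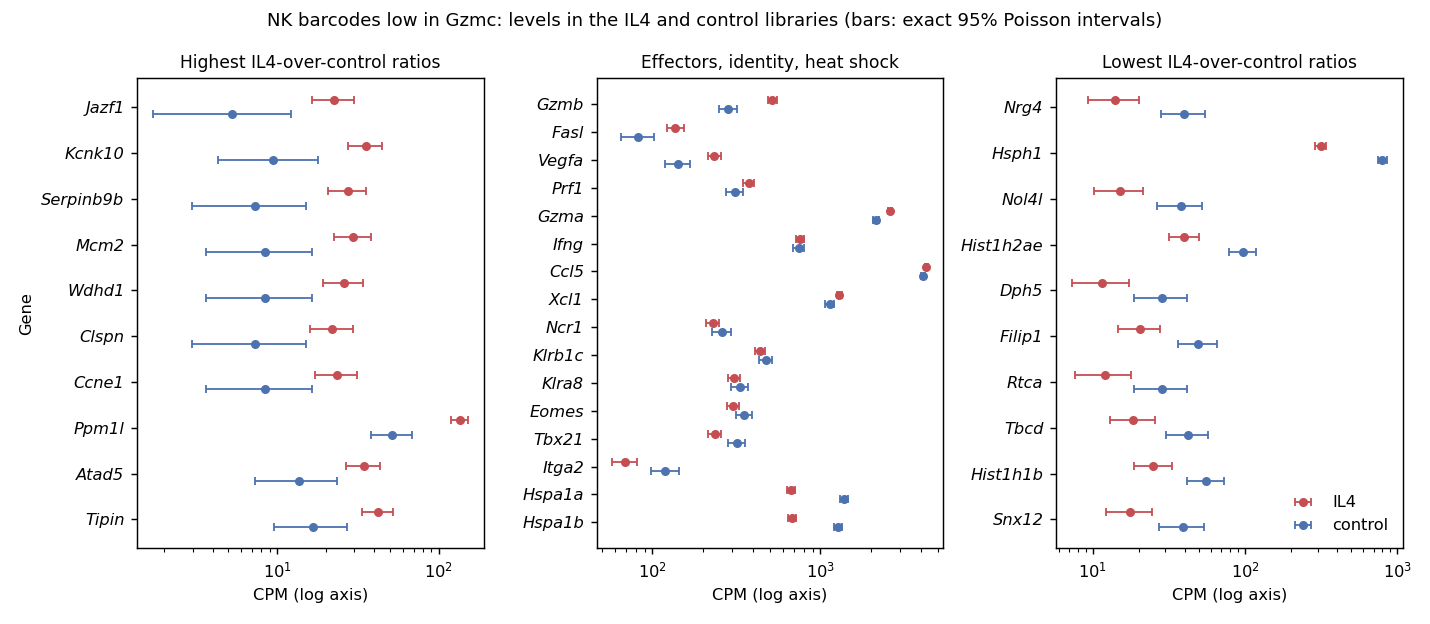
Levels of named genes in the gated NK cells as CPM (x axes, log scale) in the IL4 and control libraries with exact 95% Poisson intervals. The left panel holds the 10 genes highest in IL4 over control, the right panel the 10 lowest, and the middle panel effector, identity and heat shock genes, where Gzmb, Fasl and Vegfa are higher in IL4, Itga2, Hspa1a and Hspa1b lower, and Ifng and Ccl5 nearly level.

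The 10 highest ratios by the rule for named genes were those of Jazf1, Kcnk10, Serpinb9b, Mcm2, Wdhd1, Clspn, Ccne1, Ppm1l, Atad5 and Tipin. Mcm2, Wdhd1, Clspn, Ccne1, Atad5 and Tipin act in DNA replication or its checkpoint. Mcm2, a subunit of the replicative helicase, had 59 UMIs in IL4 and 8 in control (29.5 and 8.40 CPM), and Tipin had 84 and 16 UMIs (41.9 and 16.8 CPM). Kcnk10, a potassium channel gene, had 35.4 CPM in IL4 and 9.45 CPM in control, a fold of 3.75 (1.87 to 8.54), against 2.88 and 1.08 CPM in the other barcodes. Serpinb9b, a serpin of the granzyme inhibitor family, had 27.5 CPM in IL4 and 7.35 CPM in control, and it was 97.2 CPM in the IL4 NK cells over the Gzmc limit. Jazf1 had 22.5 CPM in IL4 and 5.25 CPM in control.

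Ppm1l, a phosphatase gene (chr3:69316861-69560802), had 271 UMIs in IL4 and 49 in control, a fold of 2.63 (1.93 to 3.64). It was higher in Xist-only cells, by 4.32 (2.67 to 7.42), and its fold was 0.517 (0.224 to 1.10) in Y-only cells, from 10 UMIs in IL4 and 27 in control. The pooled value therefore rested on the Xist-only cells.

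The cell-cycle list had 8 of 19 tested genes at least 1.5-fold higher in IL4 and 1 lower. Over all tested genes 7.82% were higher and 8.19% lower. The list's median log2 ratio was 0.43. In the other barcodes 0 of its genes passed 1.5-fold and the median was -0.04. Those barcodes held 130882018 UMIs in IL4 and 94409403 in control, against 2003671 and 952361 in the gated cells. Counting error was thus far smaller there, and the contrast does not show whether the difference is particular to the NK cells. The list median ran between 0.0118 (with the myeloid limit at 40 per 10000) and 1.07 (with T cell genes also at 0) over the alternatives, so its size was not stable. Higher were Mcm2, Mcm3, Mcm5, Cdk1, Rrm2, Tk1, Stmn1 and Pclaf, largely genes of DNA synthesis. Stmn1, a microtubule regulator, had 160 CPM in IL4 and 83.0 CPM in control, and 68.2% of its IL4 UMIs and 76.0% of its control UMIs came from the cycling cells. Mki67 was level at 93.8 and 94.5 CPM, Top2a had 67.4 and 70.4 CPM, and Cenpf, a kinetochore gene, was lower at 31.4 and 50.4 CPM. The histone genes Hist1h2ae (39.9 and 96.6 CPM) and Hist1h1b (50 and 53 UMIs) were among the 10 lowest ratios. With 14 and 5 cycling cells, these levels rest on few barcodes.

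Several heat shock genes were lower in the IL4 cells, and lower also in the other barcodes of that library. Hsph1, a co-chaperone of the HSP110 family (chr5:149614287-149636376), had 629 UMIs in IL4 and 761 in control, which is 314 CPM (290 to 339) in IL4 and 799 CPM (743 to 858) in control. The fold was 0.393 (0.353 to 0.437). The other barcodes had 138 CPM in IL4 and 299 CPM in control. Hspa1a had 670 CPM in IL4 and 1391 CPM in control (fold 0.482, 0.446 to 0.520), and Hspa1b had 676 and 1275 CPM (0.530, 0.491 to 0.574). These copies of HSP70 are nearly identical in sequence, so their split is uncertain. Dnajb1 had 225 and 441 CPM, and Hspb1 had 19.0 and 59.9 CPM. In Y-only cells the fold of Hsph1 was 0.507 (0.389 to 0.657) and that of Hspa1a 0.693 (0.580 to 0.826). There the interval of Dnajb1, 0.593 to 1.11, included 1, and Hspb1, with 6 UMIs in IL4 and 7 in control, had a fold of 1.20 (0.333 to 4.16).

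The wider early response and dissociation list did not move as 1 block. Of 19 genes, 4 passed lower (Hspa1a, Hspa1b, Hspb1 and Dnajb1) and 1 higher (Atf3), with a median log2 ratio of -0.07. Atf3, a stress-induced factor, had 1351 CPM in IL4 and 881 CPM in control, while Fos had 2826 and 3454 CPM and Jun 1809 and 1898 CPM. The remaining low ratios by the rule were Nrg4, Nol4l, Dph5, Filip1, Rtca, Tbcd and Snx12, each under 50 CPM in both libraries. Nrg4, a growth factor gene of the neuregulin family, had 14.0 CPM in IL4 and 39.9 CPM in control.

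Of the adhesion and residency genes, Itga2 was lower in the IL4 cells, while Itga1, Inpp4b, Tmem176b and Ccr7 changed direction under some alternatives. Itga2, which encodes the CD49b integrin used to mark mouse NK cells, had 138 UMIs in IL4 and 114 in control, which is 68.9 CPM (57.9 to 81.4) in IL4 and 120 CPM (98.7 to 144) in control. The fold was 0.575 (0.446 to 0.744). The fold was 0.593 (0.427 to 0.829) in Xist-only cells and 0.772 (0.431 to 1.35) in Y-only cells. Of 15 tested chemokine receptor and adhesion genes, 4 passed lower (Itga1, Itga2, Ccr7 and Cx3cr1) and none higher. Of 11 tested residency genes, 4 passed lower (Itga1, Tnfsf10, Tmem176b and Inpp4b) and 1 higher (Il21r), and the list median was -0.43. Itga1, the CD49a integrin of tissue-resident cells, had 14.5 CPM in IL4 and 29.4 CPM in control, from 29 and 28 UMIs. In Y-only cells the residency median was 0.42, Inpp4b had a fold of 2.48 (1.35 to 4.70), and Itga1 had 7 UMIs in IL4 and 2 in control. Tmem176b had a log2 ratio of 0.69 in the remaining members and Ccr7 of 1.12 without cells holding 3 or more cell-cycle UMIs, both opposite to the value in all gated cells.

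Of 20 tested transcription factors, 1 was lower past 1.5-fold and none higher. Over all tested genes 8.19% were lower and 7.82% higher. Tbx21, the T-bet factor of NK and T helper cells, had 235 CPM in IL4 and 318 CPM in control (fold 0.739, 0.638 to 0.856). Ikzf2 (Helios) was the one past 1.5-fold, with 111 CPM in IL4 and 181 CPM in control (fold 0.613). The 5 cycling control cells had 915 CPM of it, and 1 control cell held 38 of the 172 UMIs. In the remaining members its log2 ratio was -0.32, within 1.5-fold, and without cells holding 3 or more cell-cycle UMIs it was 0.17. It was past 1.5-fold in 17 of 25 other settings. Runx3 had 478 and 506 CPM and Ets1 604 and 713 CPM. Genes of the less mature stage had a median log2 ratio of -0.29 with 1 of 12 lower (Kit, at 30.4 and 57.8 CPM), and those of the mature stage 0.24 over 11 tested genes, with Ly6c2 higher (90.3 CPM in IL4 and 42.0 CPM in control) and Cx3cr1 lower. Ly6c2 is also a monocyte gene and had 221 and 123 CPM in the other barcodes.

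Interferon and metabolic genes are set beside shares of 7.82% higher and 8.19% lower over all tested genes. Of 17 type I interferon response genes, Oas1a passed 1.5-fold higher and Oasl2 lower. Their median was 0.19, and it was -0.0535 with at most 10 myeloid UMIs per 10000, while the other barcodes had 5 higher and a median of 0.44. Isg15 had 402 CPM in IL4 and 299 CPM in control, and Ifit1 had 554 and 480 CPM. In the list of interferon gamma, IL-12 and IL-18 response, 2 of 12 passed higher (Gbp2 and Cish), with a median of 0.12. None of 16 oxidative phosphorylation genes and none of 10 MHC class I genes passed 1.5-fold, with medians of -0.03 and -0.06. B2m, the light chain of MHC class I, had 2272 CPM in IL4 and 2456 CPM in control.

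**Figure D4:**
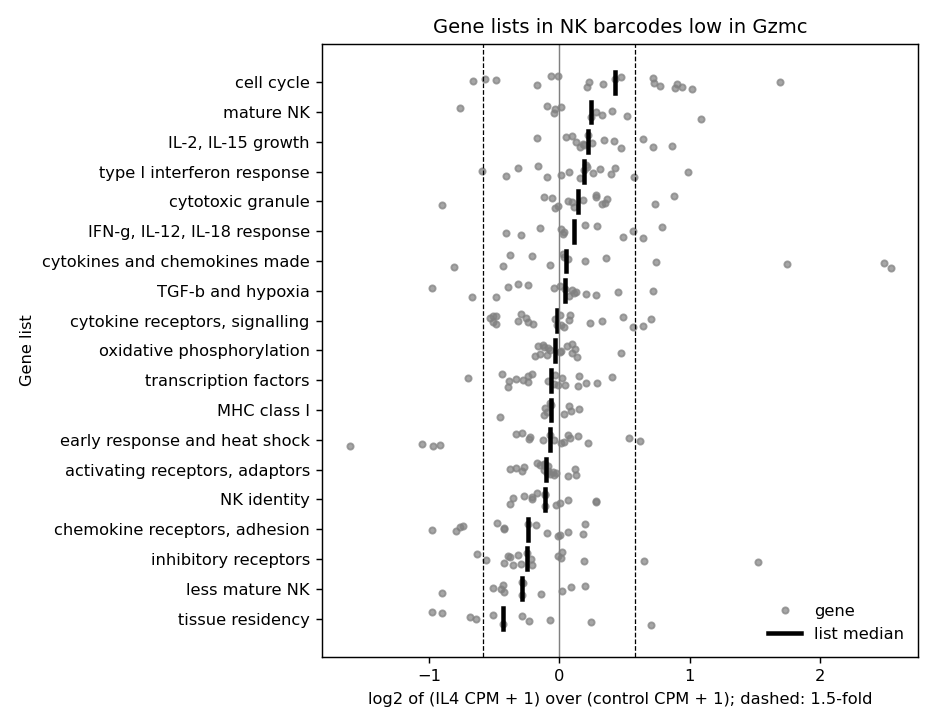
Log2 ratio of IL4 CPM + 1 over control CPM + 1 in the gated NK cells (x axis) for each gene (points) of 19 lists (rows), with the list median as a bar and dashed lines at 1.5-fold. Medians range from 0.43 for the cell cycle to -0.43 for tissue residency, and those of NK identity (-0.11) and activating receptors (-0.10) lie near 0.

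**Figure D5:**
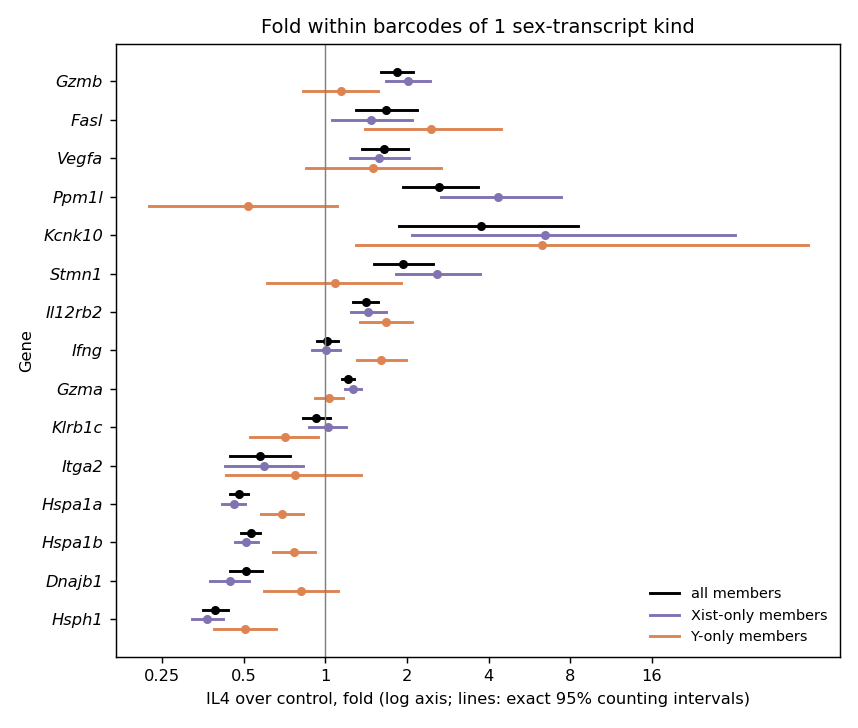
Fold of IL4 over control (x axis, log scale) for 15 genes in all gated NK cells, in Xist-only cells and in Y-only cells, with exact 95% counting intervals. Fasl, Kcnk10 and Il12rb2 lie above 1 and Hspa1a, Hspa1b and Hsph1 below 1 with intervals clear of 1 in both kinds of cell, whereas the Y-only intervals of Gzmb, Vegfa, Stmn1 and Itga2 include 1 and Ppm1l lies on opposite sides.

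Of 142 named genes, 29 were past 1.5-fold higher and 24 past 1.5-fold lower in the IL4 cells. Over all tested genes the shares were 7.82% and 8.19%. Many genes were named for the size of this ratio, so these counts describe the choice. The 29 include Gzmc, which a gate limits, and Gzmd, at very few UMIs. Under 25 other settings, 19 of the 29 and 13 of the 24 kept their direction each time. The settings largely reuse the same cells, so this is no independent support. AA467197, Atad5, Clspn, Jazf1, Serpinb9b and Tipin stayed past 1.5-fold higher in all 25, and Hsph1, Snx12 and Tbcd stayed past 1.5-fold lower.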

How the data were processed

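The authors deposited whole-number UMI counts for 32285 genes per cell barcode, made with Cell Ranger 7.2.0 on mm10 per the submitters' processing notes. Which annotation they used is not stated in the sources used here. Kept barcodes had 500 UMIs or more, 250 genes or more and no more than 10% of UMIs from mitochondrial genes, 13762 of 13873 in IL4 and 8937 of 8994 in control, holding 132885689 and 95361764 UMIs. No doublet caller was run. The gated cells held 2003671 UMIs in IL4 and 952361 in control. The libraries share 23 barcodes.

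Counts were summed over the gated cells of a library, divided by their total and given as CPM. Log2 ratios used CPM + 1, while folds used CPM alone. With 1 library per group no test was run. Intervals were exact Poisson for CPM, exact conditional for folds and Clopper-Pearson for shares. Cells were split by UMIs of Xist and of Y-linked genes. The CD8 T cells held at least 2 CD3 UMIs and 1 CD8 UMI. They also had to hold no UMI of Ncr1 or Klrb1c and at most 20 UMIs per 10000 of the myeloid gate genes. Levels of these genes in the CD8 T cells, and their share of kept barcodes, are therefore partly set by selection.

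Named genes were the 10 highest and 10 lowest IL4-over-control ratios (at least 50 UMIs in both libraries together, at least 20 CPM and no lower than in the other barcodes in the higher library), the 25 leading the gated cells, the 10 highest and 10 lowest against NK cells with 3 or more Gzmc UMIs, up to 4 genes per pathway list plus its most abundant one, and a fixed set that held the gate, granzyme and maturation genes. Genes named outside this rule were chosen after their values were seen. The members and lists were chosen with earlier results of these data known. Across 25 alternatives (23 planned, 2 added after seeing the data) gates, depth, scaling and filters were changed one at a time. The summing and interval steps were tested on simulated data. Gene coordinates are those of GENCODE on GRCm38. Tools were Python 3.11.15, numpy 2.4.6, scipy 1.17.1, pandas 2.3.3, matplotlib 3.10.9 and edgeR 4.0.16 (scaling factors only).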

Additional observations from a re-analysis of the deposited data

Results flagged for a closer look

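For 5 named genes the log2 ratio of IL4 over control lay on opposite sides of 0 in Xist-only and Y-only gated NK cells, with both counting intervals clear of 1, and in each case the difference was not tested. In Xist-only and Y-only cells the values were -1.36 and 3.69 for Arg1, -1.22 and 1.30 for Inpp4b, -0.59 and 0.67 for Ltb, 0.61 and -1.27 for Rnf125, and -0.95 and 1.73 for Tnf. The Y-only values rest on 25 IL4 and 37 control cells.

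Barcodes that met the NK, CD3 and Gzmc limits but held more myeloid transcripts than allowed were used in no comparison. They were 1.13% of kept IL4 barcodes (156; exact interval 0.963 to 1.33%) and 0.727% of kept control barcodes (65; 0.562 to 0.926%).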

How the results depend on the processing

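Over 25 alternatives, 3550 values of named genes were computed and 171 had the other sign than the reported value, 26 of them in genes past 1.5-fold. Of 450 list medians 30 had the other sign. The cause of each move was not tested.

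With a gate of 1 UMI of Ncr1 and Klrb1c the difference in share was 1.02 points (0.598 as reported) and the cytokine receptor median 0.11. With a gate of 3 UMIs the type I interferon median was 0.32. Genes past 1.5-fold higher and lower numbered 444 and 472 with a pseudocount of 5 CPM, 99 and 135 at 100 UMIs or more per gene, and 2072 and 2300 at 1 UMI or more.

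Medians of the activating receptor list were -0.15 with at most 10 myeloid UMIs per 10000, -0.0444 with at most 40 and -0.000412 in Xist-only cells. On cells gated after thinning to 2000 UMIs the cytotoxic median was -0.0630 and the less mature NK median -0.45. With Trac, Cd4, Cd8a and Cd8b1 also at 0 the cell-cycle median was 1.07, and it was 0.0118 with at most 40 myeloid UMIs per 10000 and 0.22 at 100 UMIs or more per gene. With at most 10 myeloid UMIs per 10000 the medians were -0.0535 for type I interferon, -0.0495 for cytokines and -0.0209 for interferon gamma response. Without cells over 2 times the median UMIs the early response median was 0.11. With equal weight per cell the type I interferon median was 0.34 and the oxidative phosphorylation median -0.12. In Y-only cells the medians were -0.29 for activating receptors, -0.59 for inhibitory receptors, -0.0672 for cytotoxic genes, 0.12 for cytokine receptors, 0.42 for residency, 0.46 for type I interferon, 0.15 for TGF-beta and hypoxia, 0.13 for early response, -0.30 for oxidative phosphorylation and -0.41 for MHC class I. Without cells holding 3 or more cell-cycle UMIs, which left 109 IL4 and 45 control cells, they were -0.19 for activating receptors, -0.50 for inhibitory receptors, -0.0573 for cytotoxic genes and 0.18 for cytokine receptors. That limit is on raw UMIs and also selects on depth.

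Among genes past 1.5-fold, the log2 ratios that changed sign were, in Y-only cells, Angpt1 0.26, Gzmc -0.48, Hspb1 0.25, Il21r -1.25, Inpp4b 1.30, Itga1 2.15, Oasl2 0.25, Pclaf -1.20, Ppm1l -0.94 and Tmem176b 0.28. Tmem176b was 0.69 in the remaining members. Ccr7 was 0.19 with a gate of 1 UMI, 0.17 on gates after thinning and 1.12 without cells holding 3 or more cell-cycle UMIs. In Xist-only cells Filip1 was 0.17. Without cells holding 3 or more cell-cycle UMIs, Angpt1 was 0.00731, Ikzf2 0.17, Mcm2 -1.67, Mcm5 -0.11 and Spp1 -1.21, and with at most 40 myeloid UMIs per 10000 Spp1 was -0.24. Hist1h1b was 0.67 on gates after thinning, 0.25 with the T cell genes at 0 and 0.55 without cells over 2 times the median UMIs, and Hist1h2ae was 0.22 after thinning and 0.66 with the T cell genes at 0.

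No paired analysis was possible because each group has 1 library, and none was left out for the same reason. With 129 control cells, genes with few UMIs have wide fold intervals, such as 1.67 to 8.50 for Mcm2.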
